A study of Homo sapiens with 2 samples.

Results

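Histone genes, both replication-dependent and variant, were examined after knockdown of SUN2 in HCT116, a cell line from a human colorectal carcinoma. SUN2 sits in the inner nuclear membrane, where it belongs to the LINC complex that joins the nucleus to the cytoskeleton. Total RNA was measured on Affymetrix arrays, with 1 array from cells with the hairpin shSUN2-1 (SUN2 knockdown) and 1 array from control cells labelled Scr, called scrambled here. Both were grown in DMEM with serum, a single hairpin was profiled, and the labels do not say how the hairpins were delivered, for how long, or whether a line was a clone. Histone genes were chosen by symbol, with pseudogenes left out, which gave 87 of the 19605 gene symbols on the array. They were read by 144 of 49293 probe sets, and 12 of the 144 carried several histone symbols. By class there were 6 replication-dependent linker histone genes (6 probe sets), 65 replication-dependent core histone genes (108 probe sets) and 15 variant genes (29 probe sets). The remaining probe set was that of H1-10-AS1, an antisense transcript that was placed in no class. Another 3 probe sets that H3-3A shares with a pseudogene did not meet the choice by symbol.

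Core histones H2A, H2B, H3 and H4 form the nucleosome, and linker histones of the H1 family bind the DNA that enters and leaves it. Most are encoded by clustered, intron-poor genes whose mRNAs are made in S phase and end in a stem-loop in place of a poly(A) tail. Variant histones are mostly encoded by single genes outside the clusters, with polyadenylated mRNAs that are made throughout the cell cycle. Some clustered genes, H1-2, H2BC5 and H2BC12 among them, are also known to give polyadenylated transcripts, which accumulate when cells leave the cycle. How the labelling reaction was primed is not given in the labels, and a reaction primed on poly(A) would sample both kinds of mRNA differently.

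With 1 array in each group there is no replicate, no test and no SD between cultures for any value. All differences are shSUN2 minus scrambled on the log2(intensity + 16) scale, and the words higher and lower describe these 2 arrays only. Folds are on the same scale, which understates the change of dim probe sets. A probe set passed the filter on low values when its mean over both arrays reached 108.2, which was the median over the 49293 probe sets. The filter left 63 of the 144 histone probe sets, and 81 lay below it. Past the filter, the scatter between probe sets of a common gene had a log2 SD of 0.09 for the 5786 genes with several. For 16 histone genes or symbol sets it was 0.07. It covers probe error only.

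SUN2 itself read 407.3 in the shSUN2 array and 497.7 in the scrambled array on its brightest probe set, a difference of -0.28. Its 4 probe sets that passed the filter gave differences between -0.39 and -0.07. Of the 9 colon epithelial markers, 6 passed the filter (EPCAM, KRT8, KRT18, KRT19, CDH1 and CLDN4), and VIL1, CEACAM5 and LGALS4 did not. Markers of other lineages passed too. They were 2 of 6 fibroblast (COL1A1 and PDGFRB), 2 of 5 immune (CD3E and CD68) and 3 of 5 endothelial markers (PECAM1, VWF and KDR). No fibroblast, immune or endothelial marker exceeded 230.1 in the shSUN2 array or 254.1 in the scrambled array, and none was at 0. The summed intensity of the epithelial markers was 9233 in the shSUN2 array and 7918 in the scrambled array, and that of the fibroblast markers was 674.4 in the shSUN2 array and 713.1 in the scrambled array. In the same order, the sums were 437.8 and 464.3 for the immune markers and 716.2 and 768.1 for the endothelial markers. Whether any of this bears on the histones was not tested. Of the 23 background control probe sets, 20 were lower in the shSUN2 array (median -0.04). They are graded by their number of G and C bases, 3 to 25. They read 31.4 to 1128 in the shSUN2 array and 31.2 to 1425 in the scrambled array. That number was not known for the histone probes. Counts of controls at or above a reading therefore do not show which readings are near their own background. Of the 6 ribosomal RNA control probe sets, 5 were higher (median 0.25, highest 0.43).

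A small set of replication-dependent histones was higher in the shSUN2 array by 2-fold or more, and the other histones differed little. The higher probe sets belonged to the linker histone H1-2, to H2AC18 and H2AC19, which a probe set cannot tell apart, and to the H2B genes H2BC12 and H2BC5. In bulk RNA, more cells with a transcript and more transcript per cell cannot be told apart. Of all 144 histone probe sets, with no filter, 7 were at least 2-fold higher (4.86%) and 0 were 2-fold lower, where 0.0284% of all 49293 probe sets were 2-fold higher and 0.00203% were 2-fold lower. No further histone probe set reached 1.5-fold in either direction, a size that 0.15% of all probe sets reached upwards and 0.0142% downwards. Past the filter there were 6 histone probe sets at least 2-fold higher, and 0.0527% of the 24647 probe sets past it were 2-fold higher and 0.00406% 2-fold lower. Of these 6, 3 read below the filter's threshold in the scrambled array and passed only through the shSUN2 array (H1-2, 1 of 2 probe sets of H2AC18 and H2AC19, and 1 of H2BC5), so their count past the filter was partly set by the difference itself. The other 3, from H2BC12, H2AC18 and H2AC19, and H2BC5, read above it in both arrays. Past the filter the next histone in order, H2AZ2, differed by 0.28. At 1.5-fold, 0.296% of all probe sets past the filter were higher and 0.0284% were lower. By gene, 0.0737% of all 12218 genes past the filter were at least 2-fold higher on their brightest probe set, and 0.00818% were 2-fold lower. That count uses only probe sets with 1 symbol, so the probe sets of H2AC18 and H2AC19 are not in it. The 6 probe sets stood for 4 of the 39 histone genes or symbol sets past the filter.

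**Figure D1:**
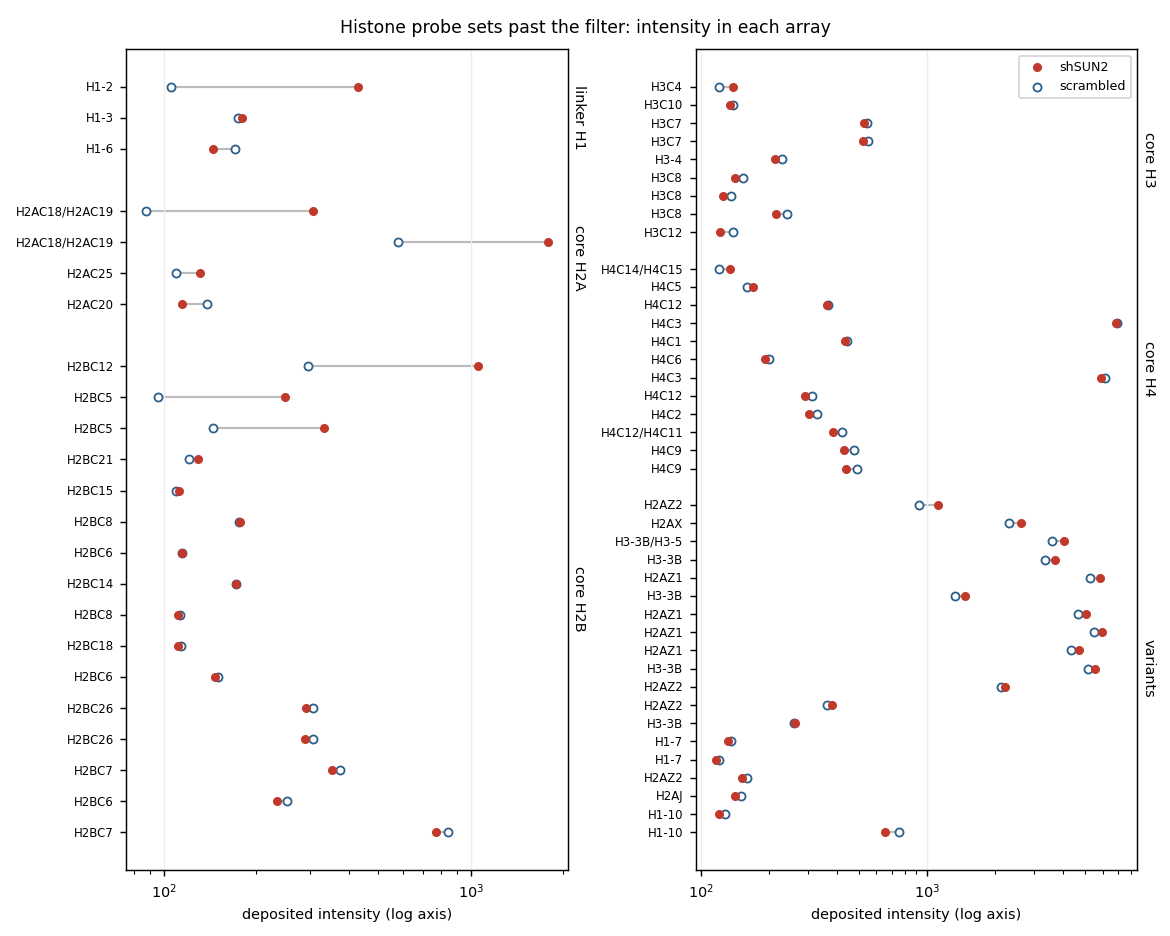
Deposited intensity on a log axis of each histone probe set past the filter, in the shSUN2 array (filled) and the scrambled array (open), with a grey line joining the pair. Long lines mark H1-2, H2AC18/H2AC19, H2BC12 and H2BC5, and in the other rows the points nearly coincide.

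The promoters of the higher genes are shown because the result rests on these genes. RefSeq promoter sequences (GRCh38.p14) were held for 80 of the 87 histone symbols. The 250 bases before the annotated start are printed for H1-2 (chr6:26056471-26056720, minus strand), H2AC18 (chr1:149842751-149843000, minus strand), H2BC12 (chr6:27146859-27147108, minus strand) and H2BC5 (chr6:26157871-26158120, plus strand). H2BC7 (chr6:26199266-26199515, plus strand), an H2B gene whose probe sets past the filter were both slightly lower, is given beside them. The entry for H2AC19 is identical to that for H2AC18 over the 299 bases in which both overlap, so it is not repeated. H2BC12 and H2BC5 each have 2 annotated starts, and only the first entry of each was printed and searched. Capitals mark the CCAAT box (CCAAT, bound by NF-Y), the TATA box (TATAAA) and the octamer known from H2B promoters (ATTTGCAT), searched on both strands. No match overlapped a match of another motif, and in H2BC12 the run of capitals near the 5′ end is TATAAA read on both strands.
H1-2: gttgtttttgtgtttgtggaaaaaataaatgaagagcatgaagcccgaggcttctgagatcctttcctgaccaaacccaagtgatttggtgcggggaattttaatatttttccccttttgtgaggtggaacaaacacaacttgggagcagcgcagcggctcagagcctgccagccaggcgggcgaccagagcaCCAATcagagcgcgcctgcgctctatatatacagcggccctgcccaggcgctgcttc
H2AC18: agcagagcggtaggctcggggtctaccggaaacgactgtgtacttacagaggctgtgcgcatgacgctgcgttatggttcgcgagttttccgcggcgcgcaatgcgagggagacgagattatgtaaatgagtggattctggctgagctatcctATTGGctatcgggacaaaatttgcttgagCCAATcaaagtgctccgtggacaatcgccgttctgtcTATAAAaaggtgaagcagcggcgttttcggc
H2BC12: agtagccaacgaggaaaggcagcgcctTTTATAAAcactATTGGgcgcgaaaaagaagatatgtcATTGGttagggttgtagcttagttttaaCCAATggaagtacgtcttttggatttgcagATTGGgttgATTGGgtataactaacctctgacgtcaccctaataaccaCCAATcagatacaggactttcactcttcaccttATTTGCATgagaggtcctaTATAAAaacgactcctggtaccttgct
H2BC5: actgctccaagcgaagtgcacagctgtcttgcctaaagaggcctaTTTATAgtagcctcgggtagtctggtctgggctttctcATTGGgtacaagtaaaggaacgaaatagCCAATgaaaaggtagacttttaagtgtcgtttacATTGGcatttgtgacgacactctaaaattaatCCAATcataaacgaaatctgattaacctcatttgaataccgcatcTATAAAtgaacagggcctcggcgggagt
H2BC7: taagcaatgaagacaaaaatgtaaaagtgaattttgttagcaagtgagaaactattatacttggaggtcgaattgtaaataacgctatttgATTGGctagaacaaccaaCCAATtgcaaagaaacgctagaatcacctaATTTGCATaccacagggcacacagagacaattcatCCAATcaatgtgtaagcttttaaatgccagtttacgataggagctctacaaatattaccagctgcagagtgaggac

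The 5 genes behind the higher probe sets shared the CCAAT box with most other histone genes. CCAAT was present in all 5, in 56 of 66 replication-dependent genes with an entry and in 32.01% of all 35116 promoters of the same length. H2BC12 held 6 matches, H2BC5 held 4, H2BC7 held 3, H2AC18 held 2 and H1-2 held 1. TATAAA was present in 4 of the 5, in 44 of the 66 and in 10.7% of all promoters, and H1-2 held no exact match in this window. Looser forms of the TATA box were not searched, so H1-2 cannot be said to lack one. The octamer was present in 1 of the 5, H2BC12. It was present in 14 of 18 H2B genes with an entry, H2BC7 among them, and H2BC5 held none. In all promoters it was found in 1.63%. These are letter matches in a fixed window and describe the sequences only.

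Among the linker histones, which compact chromatin between nucleosomes, H1-2 stood apart. Its 1 probe set read 428.6 in the shSUN2 array and 105.2 in the scrambled array, a difference of 1.88 or 3.67-fold. Of the 23 background controls, 4 were at or above the H1-2 intensity in the shSUN2 array and 9 in the scrambled array. Both readings are thus within the range of these controls, but whether background limits the fold is not known. The scrambled reading is below the filter's threshold. H1-3 read 179.2 in the shSUN2 array and 174.1 in the scrambled array, a difference of 0.04. H1-6, the testis linker histone, read 144.2 in the shSUN2 array and 170.2 in the scrambled array, a difference of -0.22. H1-1, H1-4 and H1-5 lay below the filter and differed by -0.04 to 0.06. Of the 3 linker genes past the filter H1-2 alone was past 1.5-fold, on a probe set of the _x_at class, whose probes can also match other transcripts.

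H2A pairs with H2B in the nucleosome, and few H2A probe sets were bright enough to be read. Of 28 probe sets for replication-dependent H2A genes, 4 passed the filter, and 2 of these were at least 2-fold higher. Both carried the symbols of H2AC18 and H2AC19. The first read 1786 in the shSUN2 array and 578.5 in the scrambled array, a difference of 1.60 or 3.03-fold. The second read 305.9 in the shSUN2 array and 87.6 in the scrambled array, a difference of 1.64 or 3.11-fold. Both probe sets thus gave nearly the same difference. They are of the _x_at and _s_at classes, and near-identical H2A copies make the assignment to these genes uncertain. Of the 23 background controls, 0 and 5 were at or above them in the shSUN2 array, against 4 and 10 in the scrambled array. Of the other H2A probe sets past the filter, H2AC25 differed by 0.23 and H2AC20 by -0.25. Below the filter, 1 of 2 H2AC11 probe sets read 89.6 in the shSUN2 array and 59.9 in the scrambled array, a difference of 0.48, and the other differed by -0.09. H2AC6, also below the filter, differed by 0.20.

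H2B was the class with most probe sets, and its higher members were a minority. Of 40 probe sets, 16 passed the filter, and 3 of these, from 2 genes, were at least 2-fold higher. H2BC12 read 1060 in the shSUN2 array and 294.9 in the scrambled array on its brighter probe set, a difference of 1.79 or 3.46-fold. Its second probe set, below the filter, read 67.1 in the shSUN2 array and 63.9 in the scrambled array, a difference of 0.06. The H2BC12 call therefore rests on 1 probe set, and the mean of both falls short of 2-fold. Of the 23 background controls, 1 was at or above the brighter probe set in the shSUN2 array and 5 in the scrambled array. H2BC5 was higher on all 3 of its probe sets. They read 333.3 in the shSUN2 array and 144.1 in the scrambled array (difference 1.13), then 248.9 and 95.7 in the same order (1.25), and 143.6 and 62.5 (1.02, below the filter). In the same order of probe sets, 5, 6 and 9 of the 23 background controls were at or above them in the shSUN2 array, against 9, 10 and 12 in the scrambled array. Whether background limits these folds is not known either. Of the higher genes, H2BC5 had the most probe sets past 2-fold.

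The other H2B genes did not follow. H2BC7 read 773.8 in the shSUN2 array and 845.1 in the scrambled array, a difference of -0.12, the lowest of the H2B probe sets past the filter. H2BC21, another H2B gene with known polyadenylated transcripts, read 128.9 in the shSUN2 array and 120.5 in the scrambled array, a difference of 0.09, and its other probe sets, below the filter, gave -0.06. The median over the 16 H2B probe sets was -0.01. H2BC26 read 289.0 in the shSUN2 array and 305.3 in the scrambled array (-0.08), and its second probe set differed by -0.07. H2BC8 differed by 0.01 and -0.02, H2BC14 by -0.0015 and H2BC15 by 0.03. Without those of H2BC12 and H2BC5, the H2B probe sets past the filter lay between -0.12 and 0.09.

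No H3 or H4 gene reached 1.5-fold, and most were slightly lower. H3 and H4 form the central tetramer of the nucleosome. Of 9 H3 probe sets past the filter, 8 were lower, with a median of -0.09. Of all probe sets past the filter, 48.9% were lower. H3C7 read 523.8 in the shSUN2 array and 550.7 in the scrambled array (-0.07), H3C8 was lower on all 3 of its probe sets (-0.15 to -0.10), H3C12 was the lowest at -0.17, and H3C4 was the only one higher, at 0.19. Of 12 H4 probe sets past the filter, 10 were lower, with a median of -0.06. With no filter, 14 of 20 H3 and 15 of 19 H4 probe sets were lower, against 57.7% of all probe sets. H4C3, on its brighter probe set, read 6848 in the shSUN2 array and 6966 in the scrambled array, a difference of -0.02. H4C1 read 436.4 in the shSUN2 array and 445.8 in the scrambled array (-0.03), and H4C2 read 300.5 in the shSUN2 array and 328.6 in the scrambled array (-0.12). H4C9 was the lowest at -0.15 and the probe set of H4C14 and H4C15 the highest at 0.13. The background controls, with a median of -0.04, were lower too, and the brighter controls by more. A control that read 146.4 in the shSUN2 array and 153.5 in the scrambled array differed by -0.06. Another, with 545.8 and 594.8 in the same order, differed by -0.12. Whether background plays a role in these small differences was not tested.

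**Figure D2:**
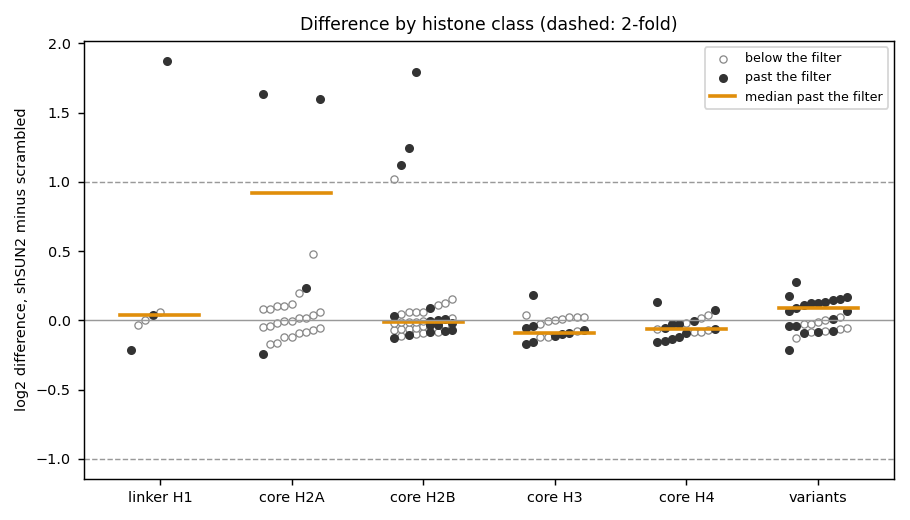
Log2 difference, shSUN2 minus scrambled, of every histone probe set by class, filled where past the filter and open below it, with the median past the filter as a bar and 2-fold as dashed lines. The points past 2-fold lie in linker H1, core H2A and core H2B, and the H3, H4 and variant points lie between -0.21 and 0.28.

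Variant probe sets differed little, and 0 of 29 were past 1.5-fold. Over all 29, 14 were higher and 15 lower. Of the 19 past the filter 13 were higher and 6 lower, with a median of 0.09, and of the 10 below it 9 were lower. H2AZ1, a variant that replaces H2A near promoters, was higher on all 4 of its probe sets, by 0.11 to 0.15. Its brightest read 5977 in the shSUN2 array and 5484 in the scrambled array. The paralog H2AZ2 ran from -0.07 to 0.28 over 4 probe sets. H2AX, which is phosphorylated at DNA breaks, read 2618 in the shSUN2 array and 2320 in the scrambled array (0.17). A further probe set shared by H3-3B and H3-5 read 4042 in the shSUN2 array and 3588 in the scrambled array (0.17). H3-3B, one of the genes for the replacement histone deposited outside S phase, was higher on all 4 of its own probe sets, by 0.01 to 0.15. H1-10, a linker variant, went the other way, with 652.8 in the shSUN2 array and 758.1 in the scrambled array (-0.21) and -0.09 on its second probe set. H2AJ differed by -0.08. Germline-restricted genes were near or below the filter, and the 2 H1-7 probe sets differed by -0.04 each. The 3 probe sets of H3-3A that are shared with a pseudogene, outside the choice, differed by -0.12 to 0.05.

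With all probe sets split into 10 intensity groups of equal size, the brightest group had a median difference of 0.10 and the next one 0.02, and 22 histone probe sets lay in the brightest. A loess fit that removes the trend with intensity turned the variant median to -0.0011. The core median was -0.04, and -0.08 after that fit. The median over all probe sets past the filter was 0.004. The linker median was 0.04 over 3 probe sets, and its sign turned without the _x_at and _s_at classes, which hold H1-2 (-0.090). The median of the core class was near 0, although 5 of its 41 probe sets were past 2-fold, since 28 of 41 were lower. Of the 44 replication-dependent probe sets past the filter, 29 were lower (65.9%). Over the whole array, 12052 of the 24647 that passed were lower (48.9%) and 12595 higher. Without the 6 higher probe sets, the replication-dependent histones past the filter numbered 38, with a median of -0.06 and a range of -0.25 to 0.23. Those 38 were selected by their difference, which raises the share that is lower, so they are not comparable with the whole array. Among the 81 histone probe sets below the filter, 51 were lower, with a median of -0.02. With no filter, 86 of the 144 histone probe sets were lower (59.7%). That is near the share over the array, where 28439 of all 49293 probe sets were lower (57.7%). Of 16 histone genes or symbol sets with several probe sets past the filter, 13 had all of them on one side of 0, 4 higher and 9 lower. No test of a difference between the classes exists with 1 array in each group.

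No higher gene was directly next to another in the histone clusters. H2AC18 and H2AC19, which share their probe sets, flank H4C15. In the RefSeq order of protein-coding histone genes, H1-2 lies between H3C3 (0.03, below the filter) and H4C3 (-0.06 and -0.02). H2BC5 lies between H1-4 (0.06, below the filter) and H2BC6 (-0.10 to 0.00). H2BC12 lies between H2AC11 (-0.09 and 0.48, both below the filter) and H4C9 (-0.15 on both probe sets). H2AC18 lies between H3C14 (-0.12 to 0.00, below the filter) and H4C15 (-0.07 and 0.13). Of these neighbours H2AC11 had the highest difference.

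**Figure D3:**
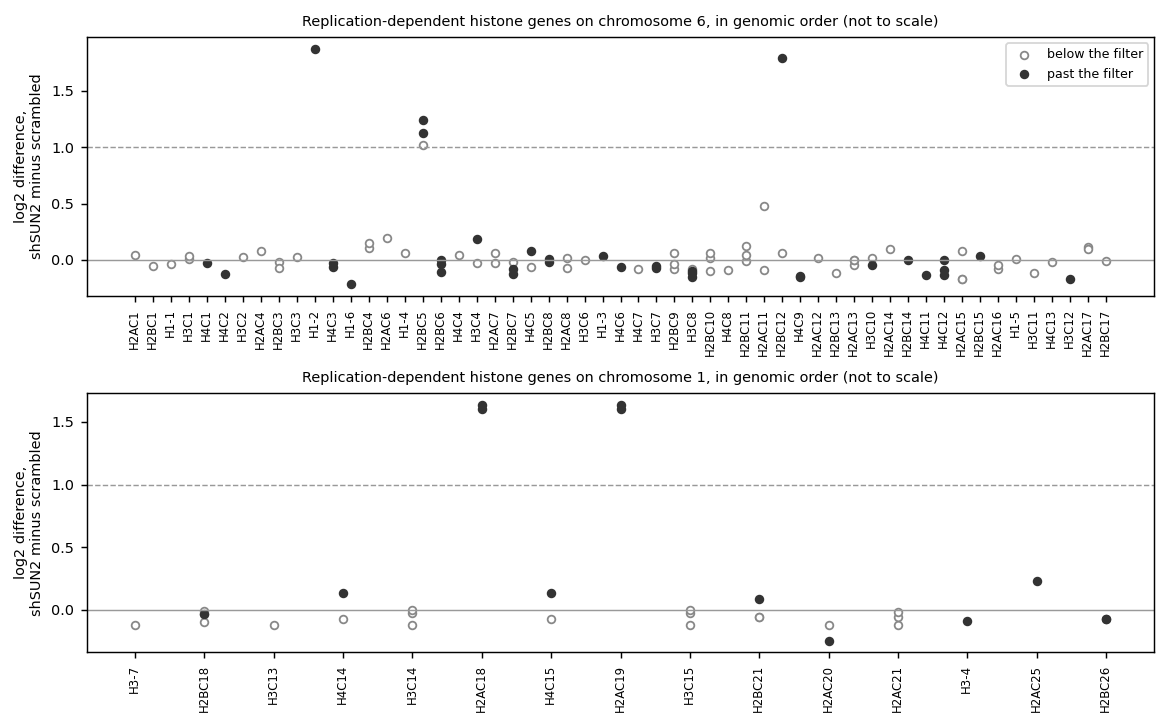
Log2 difference, shSUN2 minus scrambled, of each probe set against the genomic order of the replication-dependent genes on chromosomes 6 and 1, filled where past the filter and open below it; the axis is order and not distance, and a probe set with several symbols is drawn at each gene. H1-2, H2BC5, H2BC12 and the pair H2AC18 and H2AC19 stand above their neighbours, and the open point at 0.48 is a probe set of H2AC11, beside H2BC12.

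Genes that make, trim and carry histone products were taken as a separate list of 89, of which 87 were analysed here and 84 passed the filter, each by its brightest probe set. As a group they differed by small amounts: 62 were higher, 22 lower, 1 at least 1.5-fold higher, 0 at least 1.5-fold lower, and 0 past 2-fold. Over all 12218 genes past the filter, 6083 were higher and 6135 lower, 0.336% were at least 1.5-fold higher and 0.0246% were 1.5-fold lower. The list median was 0.07, against -0.0008 over all genes. After quantile normalization 45 were higher and 39 lower (median 0.02), and after loess 48 and 36 (median 0.03). The count of lower genes thus moved with the normalization.

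Transcription regulators held the largest difference, with a median of 0.14 over 14 genes, 12 of them higher. CCNE2, a cyclin that activates CDK2 at the start of S phase, read 333.7 in the shSUN2 array and 184.4 in the scrambled array, a difference of 0.80. Its second probe set, below the filter, differed by 0.03. CCNE1 differed by 0.35 and 0.08 on its 2 probe sets. CDKN1A, which inhibits CDK2, differed by 0.36 and 0.47. NPAT, the coactivator of histone genes at the histone locus body, differed by 0.04 on its brightest probe set, and its partner CASP8AP2 by 0.12.

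The 3′ end machinery and the decay factors were higher by less. The stem-loop binding protein SLBP, which holds the end of replication-dependent histone mRNAs, read 548.4 in the shSUN2 array and 478.7 in the scrambled array (0.19), and 0.08 on its second probe set. LSM10, a subunit of the U7 snRNP that guides the cut, differed by 0.31 and 0.26. The Sm protein SNRPD3 differed by 0.28, and by -0.12 on a second probe set below the filter. PAPOLA, a poly(A) polymerase, was the lowest of the group, with 514.3 in the shSUN2 array and 571.6 in the scrambled array (-0.15), and its 6 probe sets past the filter lay between -0.39 and -0.05. The zinc finger protein ZNF473 differed by -0.13, and LSM11 lay below the filter. Of 26 genes of the 3′ end group past the filter, 21 were higher (median 0.10). Of 13 decay genes 10 were higher (median 0.08), led by the helicase UPF1 (0.24) and the terminal transferase TENT4B (0.21), and the histone exonuclease ERI1 differed by 0.07. The lowest probe set past the filter differed by 0.06 for UPF1 and by 0.07 for TENT4B.

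Chaperones, which carry histones to DNA, were the most evenly divided group, with 19 of 31 higher and a median of 0.02. NAP1L4 was the lowest gene of the list, with 475.8 in the shSUN2 array and 596.3 in the scrambled array (-0.32). That was its only probe set past the filter, and the mean over its 5 probe sets was -0.09. HIRA, which deposits the H3-3 replacement histone, differed by 0.27 and 0.02 on its 2 probe sets. MCM2, which also binds histones at the replication fork, differed by -0.09 on its brightest probe set, and the highest of its 4 was 0.08.

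**Figure D4:**
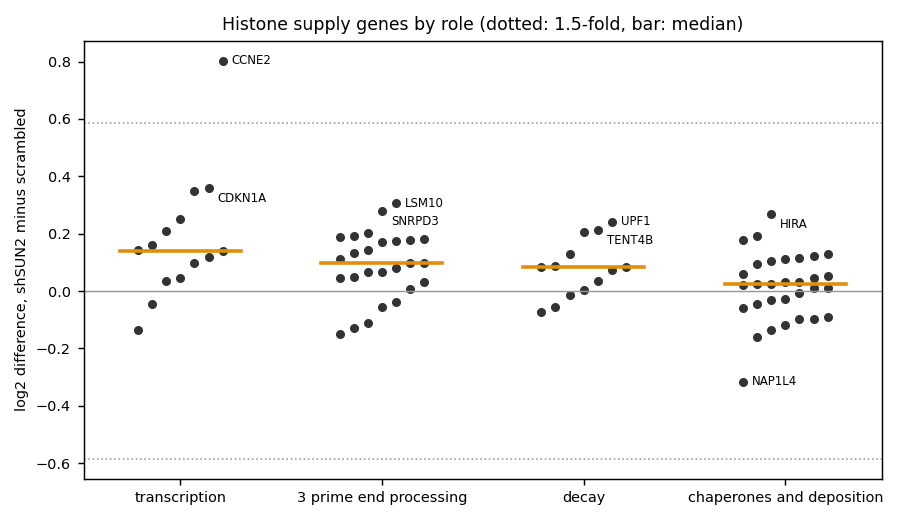
Log2 difference, shSUN2 minus scrambled, of the histone supply genes past the filter by role, each by its brightest probe set, with the median as a bar and 1.5-fold as dotted lines. CCNE2 is the only point outside the dotted lines, and NAP1L4 is the lowest.

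For the 7 histone probe sets that were 2-fold higher, the size of the difference depended on the constant added before the log, and the direction was the same under the 7 settings plotted. With the pseudocount raised to 64, H1-2 was higher by 1.54, H2BC12 by 1.65 and the 2 probe sets of H2AC18 and H2AC19 by 1.53 and 1.29. H2BC5 stood at 0.97 and 0.93 at that setting, under 2-fold, and 4 histone probe sets were past it. Under median centring, quantile normalization, loess, normexp and a pseudocount of 1, the same 6 probe sets were past 2-fold. The lowest of the 6 differences was 11.9 times the probe scatter, but the 6 were picked for a large difference. The scatter covers only probe sets past the filter. It leaves out the second H2BC12 probe set, which differed by 0.06 where the first differed by 1.79. The multiple is thus no measure of certainty. The ribosomal RNA controls were at most 0.43 higher. Those comparisons are within these arrays, and variation between cultures was not measured.

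**Figure D5:**
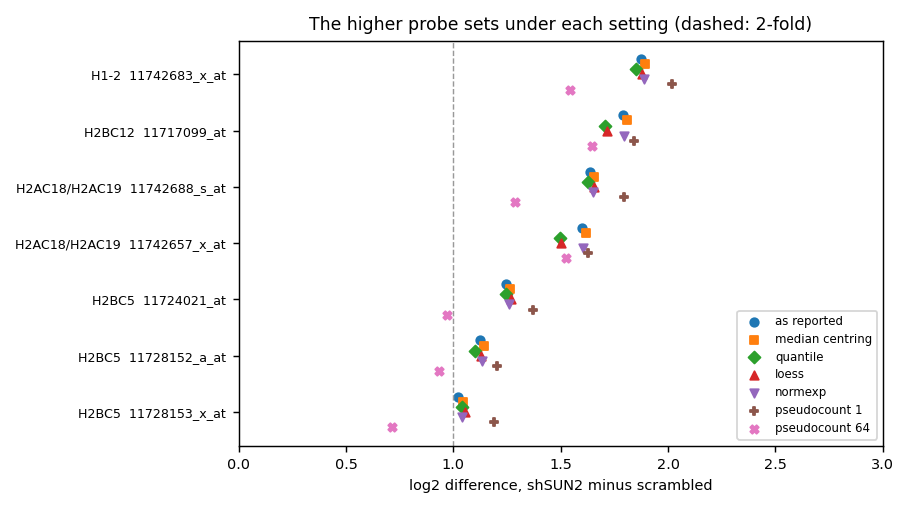
Log2 difference, shSUN2 minus scrambled, of the 7 histone probe sets that were 2-fold higher, each under 7 settings of pseudocount, background and normalization, with 2-fold dashed; the lowest row lies below the filter on low values. All points are above 0, and H2BC5 falls under 2-fold with a pseudocount of 64.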

How the data were processed

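The authors deposited linear probe set intensity values for 2 arrays, 1 per group. MAS5 and RMA are named, per the submitters' processing notes, with no role or order. How the arrays were scaled against each other is unknown, and their medians were 107.1 (shSUN2) and 108.8 (scrambled). Labelling started from 100 ng of RNA, per the labels' protocols. The number of arrays limits the precision.

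The 102 control probe sets were kept apart. Symbols came from the platform annotation, updated through Entrez IDs to RefSeq (GRCh38.p14): of 49293 probe sets, 44988 had 1 symbol, 1832 several and 2473 none. Differences were taken on log2(intensity + 16) in Python 3.11.15. Quantile, loess and normexp alternatives were run with R 4.3.3 and limma 3.58.1, and the steps were tested on simulated data. Probe sequences were not used here. The text names histone probe sets past 1.5-fold, the brightest, highest and lowest of each class, every probe set of a gene past 2-fold, and in the supply list the largest differences per role. Neighbours and the other genes named were chosen after their values were seen. Members and lists were chosen with earlier results of these data known.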

Additional observations from a re-analysis of the deposited data

How the results depend on the processing

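No paired analysis was possible because neither condition has a second array, which also means that no array could be removed. Of the 6 histone probe sets at least 2-fold higher, 3 were left once the _x_at and _s_at classes were removed, and 3 genes or symbol sets were past 2-fold when the probe sets of each were averaged. Taking each gene by its brightest probe set gave 4, so averaging lost 1 more, H2BC12, whose probe sets differed by 1.79 and 0.06. The count of probe sets 2-fold lower was 0 under every setting run. The linker median, 0.04 over 3 probe sets, was 1.88 with the filter at the 75th percentile, which leaves H1-2 alone, and -0.090 when the _x_at and _s_at classes, and with them H1-2, were removed. The variant median of 0.09 was -0.0011 after loess and -0.00017 with no filter on low values, and the cause was not tested. The core median was below 0 under all settings run. With no filter it was -0.022, near the median of -0.017 over all 49293 probe sets. In the supply list, 39 genes were lower after quantile normalization and 36 after loess, against 22, and averaging probe sets left 0 genes at least 1.5-fold higher. Low readings in the scrambled array limit the folds of H1-2, of H2BC5 and of 1 of 2 probe sets of H2AC18 and H2AC19, and the 81 histone probe sets below the filter.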
